A study of Rattus norvegicus with 12 samples.

Results

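GH-only probes are the array spots whose ratio to TXOX moved after growth hormone (GH) given alone and stayed near 0 both after estradiol (E2) and after E2 plus GH. They were taken from the authors' table of log2 ratios to TXOX, among spots with a value on at least 3 arrays of each treatment. A spot was a member when its mean over the GH arrays was at least 0.58 in size, a 1.49-fold difference, and its means over the E2 and the E2 plus GH arrays both lay between -0.3 and 0.3. Of 22163 spots in the table, 11478 had enough values and 21 met the rule. GH alone raised 15 of them and lowered 6. Members were thus chosen by their GH, E2 and E2 plus GH means over all 12 arrays, and every value of these spots on those arrays is a description of what was chosen and not a test.

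The animals were male Sprague-Dawley rats of 3 months. All of them, the reference animals included, were made hypothyroid with 0.05% methimazole in the drinking water for 5 weeks, from postnatal day 59 to 94, and were castrated 2 weeks after its start, which the study abbreviates as TXOX. TXOXE2 rats received E2 benzoate subcutaneously at 50 µg/kg on 5 days a week for 27 days. TXOXGH rats received vehicle and then GH at 0.3 mg/kg/day, split into 2 daily injections, for 7 days. TXOXE2GH rats received E2 for 20 days and then both hormones for 7 days. By the study's own dates, castration and day 94 lie closer together than the 27 days of E2, which is not resolved here. Each array compared liver RNA of 1 treated animal with liver RNA of a TXOX animal given vehicle, with 4 arrays for each treatment. Loss of the thyroid and testicular hormones was thus common to all groups, and no group without it is part of these arrays. By the channel descriptions Cy5 marked the treated RNA and Cy3 the TXOX RNA on all arrays, so in a ratio to TXOX a probe's preference for a dye cannot be told apart from the treatment. Such a preference cancels where 2 treatments are compared. It stays, with its sign reversed, where E2 plus GH is compared with the sum of E2 and GH. In a sample of whole liver, fewer cells of a type and less RNA per cell cannot be told apart.

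GH acts on hepatocytes through the GH receptor, which activates the kinase JAK2 and the transcription factor STAT5. In rats the pulsatile release of GH in males and the more continuous release in females drive much of the sex difference in liver gene expression. E2 acts in liver through the estrogen receptor, and it is known to induce suppressors of cytokine signalling that dampen the GH receptor. The comparison of GH with E2 plus GH asks which GH responses are kept when E2 is already present.

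The array carries long oligonucleotides under the probe identifiers of its design, and the sources used here do not pair these identifiers with genes. Members are therefore given by probe. Gene lists, cell type markers, promoters and oligonucleotide sequences were not analysed here, and the liver label was not checked against its markers. The arrays had 19130 to 22346 unflagged spots each, and the authors' table held 12305 to 17490 values per array. All 21 members lay above local background in both channels on at least 3 GH arrays, and none had a saturated pixel. Over the GH arrays, the Cy5 foreground of the members was a median 9.56 times the local background, against 7.68 for the other 333 spots with a GH value of 0.58 or more in size and 4.29 for all 11478.

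Few of the GH responses met the rule. GH moved 354 of the 11478 spots by 0.58 or more, 192 up and 162 down, so the members were 7.81% of the raised spots and 3.70% of the lowered ones. In 182 of the 354 the E2 plus GH mean was also past 0.58 on the same side, and in 108 it lay between 0.3 and 0.58. It was past 0.3 on the opposite side in 6. Of the 58 spots with an E2 plus GH mean inside the band, 30 had left the band after E2 alone on the side of the GH response, 7 had left it on the other side, and 21 were the members. With the roles exchanged, 194 spots moved after E2 alone and stayed in the band in the other 2 groups, which was 30.1% of the 644 that E2 moved, and 50 did so after E2 plus GH, 11.1% of 450. The number after GH depended on single arrays, with 19 raised and 27 lowered spots without GH replicate 1 and 18 and 33 without GH replicate 3. Each treatment was compared with animals of the TXOX group, and reuse of these animals across arrays is not stated. The shares of the treatments were not tested against each other.

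**Figure D1:**
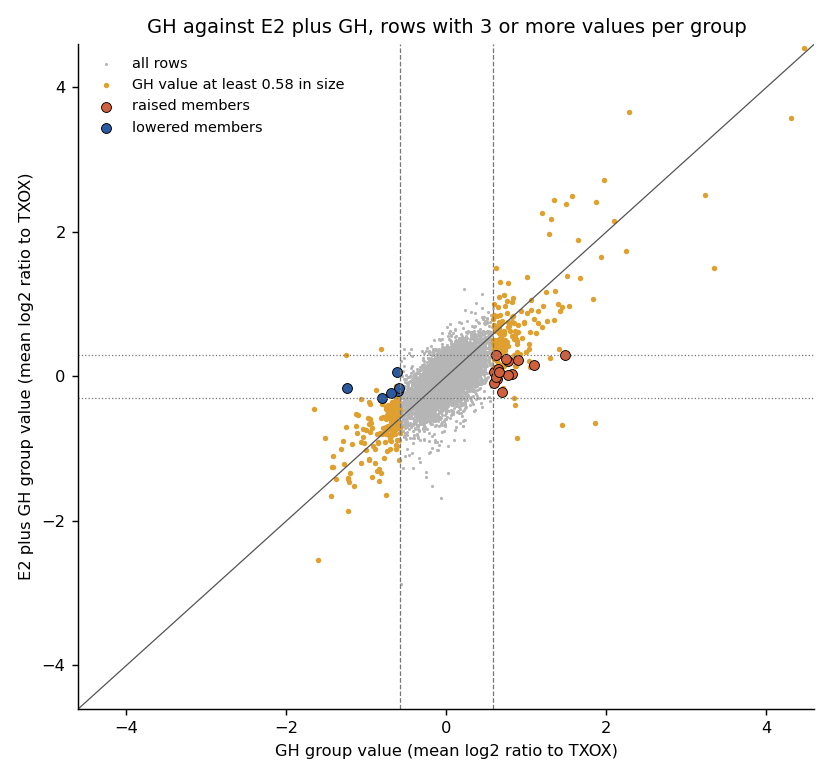
Mean log2 ratio to TXOX over the GH arrays (horizontal axis) and the E2 plus GH arrays (vertical axis) for the 11478 spots with 3 or more values per group. Dashed lines mark 0.58 in size, dotted lines the band of 0.3, and the solid line equal values. The 15 raised and 6 lowered members lie within the band. Of 354 spots with a GH value of at least 0.58 in size, 182 had an E2 plus GH mean past 0.58 on that side.

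Probe Rn30011902 had the largest GH value of the members, a mean log2 ratio of 1.48 ± 0.62 (SD, n = 4), which is 2.79-fold. It read 1.58, 1.03, 2.32 and 0.99 on GH replicates 1 to 4 and between -0.28 and -0.03 on the E2 arrays. On E2 plus GH replicates 1 to 4 it read 1.32, -0.24, -0.24 and 0.32. The first of these lies inside the GH range, so the mean of 0.29 inside the band combines 1 array with a GH-sized value and 3 without.

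Probe Rn30019302 was next, at 1.10 ± 0.22 (SD, n = 4) and 2.14-fold. Its GH values of 0.78, 1.25, 1.10 and 1.25 all lay above its E2 plus GH values of -0.36, -0.17, 0.46 and 0.72. On the E2 arrays it read -0.01, 0.82, -0.06 and -0.10. The GH arrays thus stood clear of the E2 plus GH arrays but not of the E2 arrays, where replicate 2 was above the lowest GH array.

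Probe Rn30008622 had a GH mean of 0.89 ± 0.24 (SD, n = 4), with 1.15, 0.75, 1.03 and 0.64 on the 4 arrays. Its E2 plus GH values ran from -0.24 to 0.73 and its E2 values from -0.50 to 0.23, so it overlapped E2 plus GH in 1 array and E2 in none. Probe Rn30011229 read 0.97, 1.01, 0.88 and 0.42 after GH, with a mean of 0.82 ± 0.27 (SD, n = 4). Its E2 plus GH arrays reached at most 0.30, below all 4 GH arrays, while 1 E2 array read 0.45.

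The 4 raised members with GH arrays above every array of both other treatments were Rn30015093, Rn30023797, Rn30006994 and R004425_01, at GH means of 0.77, 0.70, 0.63 and 0.59. Probe Rn30015093 read 0.60, 0.86, 0.88 and 0.76 after GH, -0.17 to 0.15 after E2 plus GH and -0.19 to 0.38 on the 3 E2 arrays that measured it. Probe Rn30023797 had the narrowest GH values of all members, 0.77, 0.66, 0.68 and 0.70, and its E2 plus GH values on 3 arrays ran from -0.59 to 0.07. Probe R004425_01 was less even, with 1.03, 0.22, 0.81 and 0.30 after GH, yet its E2 plus GH arrays were all between -0.15 and -0.02.

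The other raised members had GH means of 0.59 to 0.77. Probe Rn30012188 read 0.73, 0.76, 1.20 and 0.31 after GH and within 0.06 to 0.12 on the E2 arrays. Its E2 plus GH value was 0.86 on replicate 3 and no more than 0.06 on the other 3 arrays. Replicate 3 was also its highest GH array. Among the raised members Rn30003978 had the E2 plus GH mean closest to the band's edge, 0.30, and Rn30005621 was the only raised member with a GH array below 0, at -0.02.

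The lowered members fell into 2 kinds. In Rn30013764, Rn30026934 and Rn30012821 all 4 GH arrays were below 0. Probe Rn30013764 read -0.70, -1.34, -1.98 and -0.95 after GH, a mean of -1.24 ± 0.56 (SD, n = 4) and 2.37-fold lower than TXOX. Its E2 plus GH values were -0.50, -0.03, -0.96 and 0.84, so the 2 groups overlapped and the mean of -0.16 again averages arrays that differed widely. Probe Rn30026934 read -0.86, -0.93, -0.58 and -0.84 after GH, and its E2 plus GH arrays, at -0.54 to 0.10, were all higher. The even values of Rn30012821, -0.59, -0.72, -0.54 and -0.56, also lay below all its E2 plus GH arrays, which ran from -0.41 to 0.14.

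In the other 3 lowered members the GH mean rested on part of the arrays. Probe Rn30020510 read 0.05, -1.09, -0.13 and -1.61 on GH replicates 1 to 4. Probe Rn30013369 had the same order, with 0.06, -0.63, -0.10 and -1.69. Probe Rn30014070 read -0.84, 0.13, 0.02 and -1.78, and it was near 0 on all E2 plus GH arrays, from 0.04 to 0.13. GH replicate 4 was the lowest array in all 3, and their SDs of 0.79 to 0.89 exceeded the GH means of -0.59 to -0.69 in size.

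**Figure D2:**
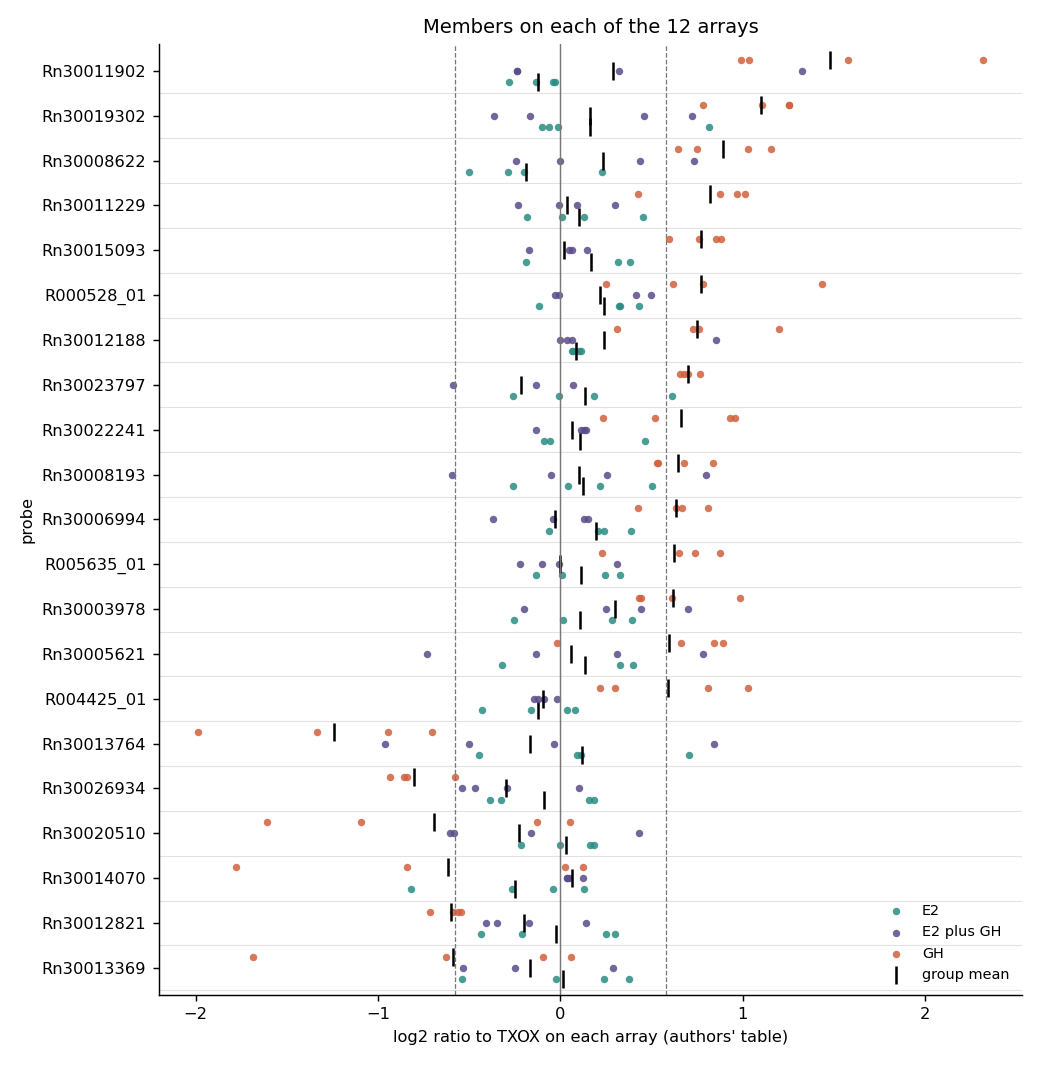
Log2 ratio to TXOX of each member (vertical axis, by probe) on each of the 12 arrays, with a point per array and a bar at each group mean. Dashed lines mark 0.58 in size. The GH points of Rn30023797 and Rn30012821 lie close together, whereas those of Rn30020510, Rn30014070 and Rn30013369 spread from above 0 to under -1.6.

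Across the members, all 4 GH arrays had 1 sign in 14 of the 15 raised and 3 of the 6 lowered. Of all spots with enough values, 35.4% had GH arrays of 1 sign. The GH arrays lay clear of the E2 plus GH arrays in 7 raised members and 2 lowered, where 2.37% of all spots had GH wholly above and 1.83% wholly below. They lay clear of both other groups in 4 raised and 2 lowered members, against 0.558% and 0.383% of all spots. Since the rule chose a high GH mean beside low means in the other groups, these shares say nothing further about the members. The name of the set describes group means only, since 7 raised and 2 lowered members had at least 1 E2 plus GH array past 0.58 on the GH side. At least 1 E2 array was past 0.58 on that side in 2 raised members and 1 lowered member.

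Arrays of GH and E2 plus GH with the same replicate number deviated together, which is described with the processing. Within these pairs, GH was above E2 plus GH in all 4 pairs in 13 of the 14 raised members with 4 pairs, and below in all 4 pairs in 3 of the 5 lowered members with 4 pairs. Of all spots with 4 pairs, 21.7% had GH on 1 side of E2 plus GH throughout, with both directions counted together. Since the rule chose on the GH and E2 plus GH means, the pair counts say nothing further about the members. Probe Rn30011229 had pair differences of 0.67, 1.02, 0.78 and 0.66, and Rn30011902 had 0.25, 1.27, 2.56 and 0.67. The exception among the raised was Rn30003978, with -0.26 in pair 3.

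The fit over all probes used ratios computed anew from the deposited intensities, and it counted a probe as changed at a limma-adjusted p under 0.05 with a log2 difference of at least 0.58. For GH against TXOX it called 716 of 20984 probes, or 3.41%, and 16 of the 21 members. Of these 13 were raised, where 2.08% of probes were called higher, and 3 were lowered, where 1.33% were called lower. The 5 members not called were R000528_01, Rn30005621 and the 3 lowered members with uneven GH arrays. For E2 plus GH against GH limma called 0 of 18695 probes (0.0%) and 0 members, while 1111 probes (5.94%) and 17 members had an unadjusted p under 0.05. When the 8 arrays were fitted with the pairs as a block, limma called 75 probes (0.401%, 0.118% higher and 0.283% lower after E2 plus GH) and 7 members. These were the raised Rn30011229, Rn30019302, Rn30023797, Rn30008622, Rn30015093 and R005635_01, each lower after E2 plus GH, and the lowered Rn30013764, which was higher. With the replicate number as a block over all 12 arrays, limma called 0 members, both as a fixed effect (0 probes) and as a random one (2 probes). That block also groups the E2 arrays by number, which were not taken as pairs, so it is no direct check on the paired fit. The blocked difference of Rn30011229 on the 8 arrays was -0.97 (standard error 0.126). For GH against E2 the fit called 209 of 18879 probes, 1.11%, and 4 members, namely Rn30011902, Rn30008622, Rn30019302 and Rn30011229, all higher after GH, as were 0.694% of probes. The departure of the combined treatment from the sum of E2 and GH was called for 160 of 17858 probes, 0.896%, and for 2 members, Rn30015093 and Rn30006994, both below the sum, as were 0.599% of probes. The rule used all these contrasts, so nothing is read from the members' counts.

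How far choosing on the GH arrays set the GH values was measured by leaving a GH array out of the choice. When the rule was applied to the other 11 arrays, with a value fewer required in the GH group, 17 to 19 spots were chosen as raised. Their median GH value was 0.68 to 0.71 on the 3 arrays that chose them. On the array left out it was 0.61, 0.64, 0.44 and 0.43 for GH replicates 1 to 4, a mean of 0.53 ± 0.11 (SD over the 4 arrays) against 0.70. Of 70 such readings, 63 were above 0 and 35 were at least 0.58. A shift along the slide that the GH arrays share, described below, stays in the array left out.

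The lowered spots kept less of their value. Between 8 and 33 were chosen, with a median of -0.62 to -0.69 on the choosing arrays. The array left out read 0.03, -0.23, -0.11 and -0.40, a mean of -0.18 ± 0.18 (SD over the 4 arrays) against -0.65. Of 78 readings 51 were below 0, and 8 were at or below -0.58. The raised and lowered spots chosen with different arrays left out overlap, and the E2 and E2 plus GH arrays were part of each choice, so these medians were not tested. The number of lowered spots also depended on single arrays, since 27 met the rule without GH replicate 1, 33 without GH replicate 3, 10 without GH replicate 4 and 10 without E2 plus GH replicate 2, against 6 with all arrays.

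**Figure D3:**
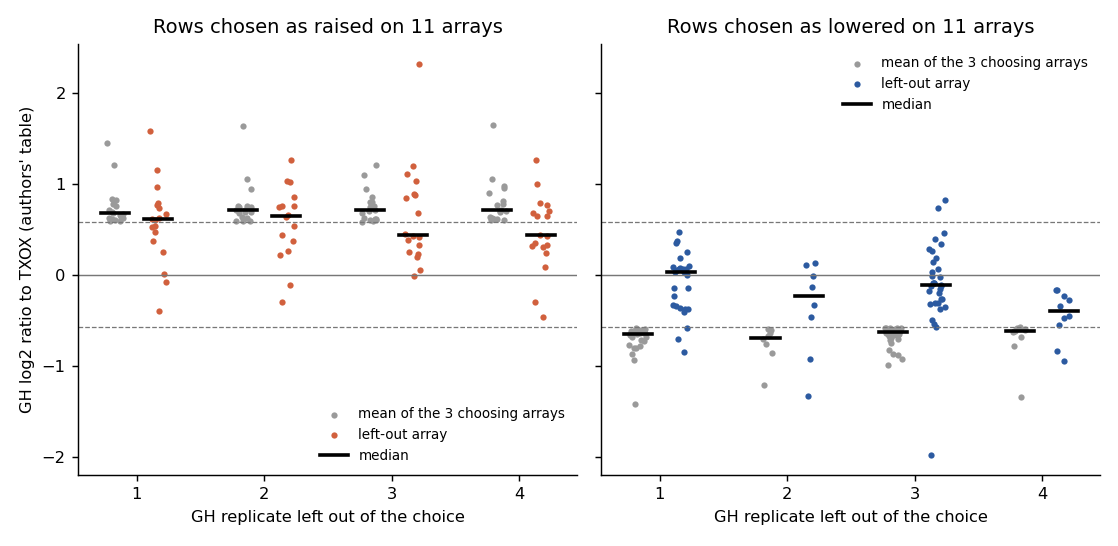
GH log2 ratios (vertical axis) of spots chosen without 1 GH array, for each replicate left out (horizontal axis), raised at left and lowered at right. Grey points are means of the 3 GH arrays that chose the spots, coloured points the array left out, and bars the medians. The raised spots keep a median of 0.43 to 0.64 on the array left out, and the lowered spots one of -0.40 to 0.03.

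The members were unevenly placed on the slide. The array is printed in 48 blocks, 4 to a row, and the last row, blocks 45 to 48, held 7 of the 15 raised members but 650 of the 11478 spots, or 5.66%. They were Rn30015093, R000528_01, Rn30023797, Rn30022241, Rn30008193, Rn30006994 and Rn30003978. No lowered member lay there. The values of all spots also shifted along the slide. From the first to the last row of blocks the median GH value went from -0.13 to 0.28, the median E2 value from -0.17 to 0.37 and the median E2 plus GH value from -0.08 to 0.10. In the last row, 64 of the 650 spots had a GH value of at least 0.58, which was 9.85%, against 192 of 11478 over all rows. The last row was above 0 on all GH arrays, at 0.19 to 0.36, and on the E2 plus GH arrays it read -0.01, 0.09, 0.08 and 0.26.

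**Figure D4:**
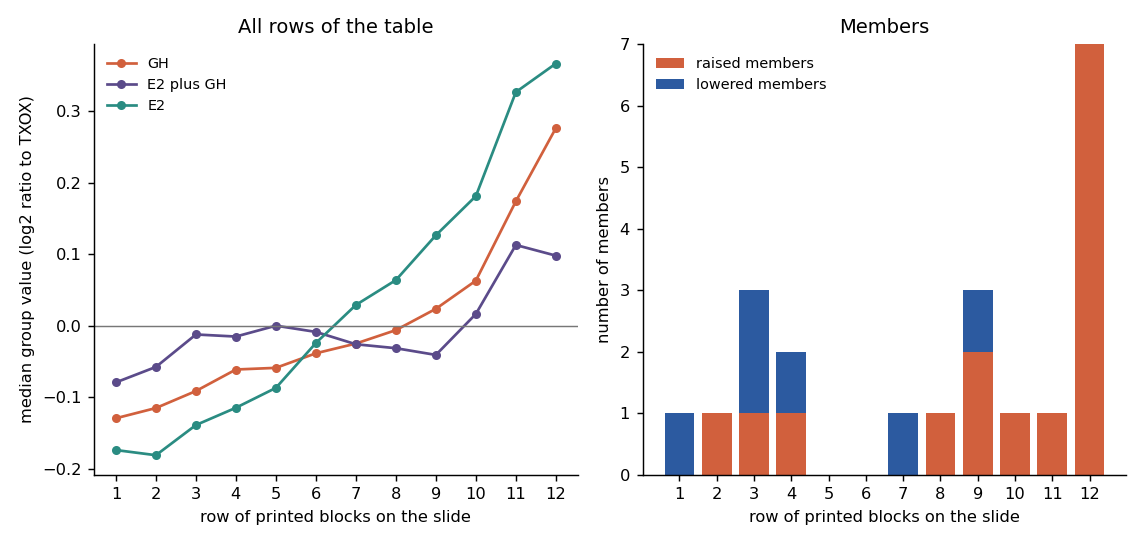
Left, median group value (log2 ratio to TXOX) of all spots by row of printed blocks, with a line per treatment. Right, number of raised and lowered members in each row. The medians of the GH arrays climb from -0.13 to 0.28 and the last row holds 7 raised members.

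One member was printed 12 times, which shows the shift within a single oligonucleotide. The member spot of R000528_01 lay in block 47 and had a GH value of 0.84 from the scanner intensities. Its other 11 spots read from 0.10 in block 4 to 0.89 in block 46, with a median of 0.40, and 1 of them was past 0.58. Their E2 plus GH values were -0.22 to 0.16 and their E2 values -0.57 to 0.31. The spots in the first 5 rows of blocks read 0.10 to 0.31 and those in the last 3 rows 0.53 to 0.89. With the normalization fitted within each printed block, the 12 spots lay between 0.30 and 0.48, all short of the limit.

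The same change of normalization separated the 7 raised members of the last row from the rest. Their GH values were 0.65 to 0.93 with a loess over the whole array and 0.29 to 0.52 with a loess within printed blocks, and none of the 7 was past 0.58. In the other 8 raised members the GH value within blocks was 0.53 to 1.57, and 6 were past 0.58. All 6 lowered members remained past the limit, at -0.61 to -1.09. Within blocks, limma called 369 of 20984 probes for GH against TXOX (1.76%) and 9 members. The rule applied to these ratios found 14 raised and 16 lowered spots, of which 4 and 6 were members here. Those kept on the raised side were Rn30019302, Rn30008622, Rn30011229 and R004425_01. Probes Rn30011902 and Rn30012188 kept GH values of 1.57 and 0.80, but their E2 plus GH means of 0.44 and 0.32 were then outside the band.

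**Figure D5:**
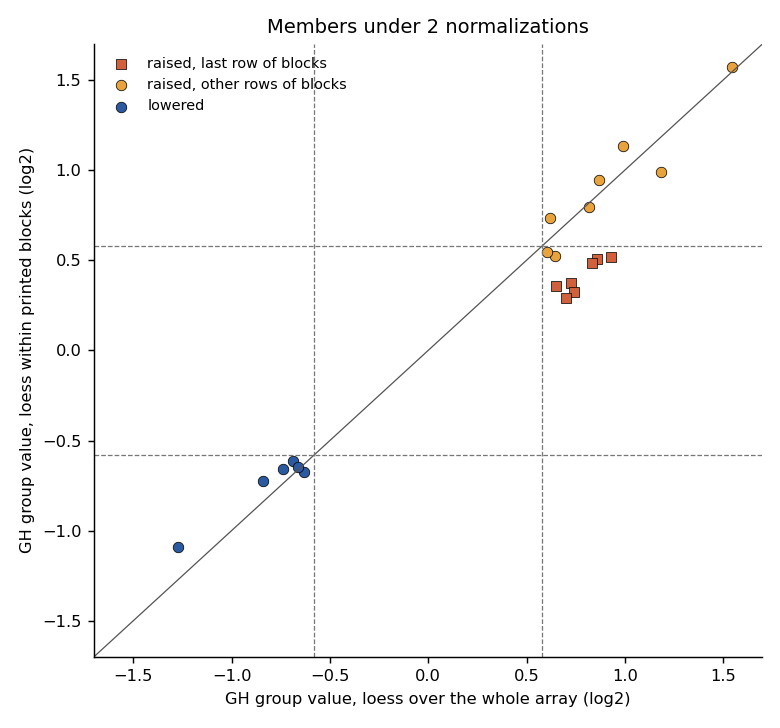
GH group value of each member with the loess fitted over the whole array (horizontal axis) and within printed blocks (vertical axis), both as log2 ratios. Dashed lines mark 0.58 in size. The 7 raised members of the last row of blocks, shown as squares, drop to 0.29 to 0.52, and the lowered members stay at -0.61 to -1.09.

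The 2 channels behind the ratios differed between the sides of the set. Read one channel at a time after scaling between arrays, the raised members were brighter in Cy5, the treated sample, on the GH arrays than on the E2 plus GH arrays, by a median log2 difference of 0.65, and all 15 were so. Their median difference in Cy3, the TXOX sample, was -0.05, and in 9 of the 15 the Cy3 difference was below 0. In 2 of the raised members, R000528_01 and R005635_01, the Cy3 difference was the larger in size. It was -0.40 and -0.36 there, beside a Cy5 difference of 0.18 and 0.26. The lowered members had a median difference of 0.06 in Cy5 and 0.52 in Cy3, and in 3 of the 6 the Cy5 signal was higher on the GH arrays. In Rn30020510, Rn30012821 and Rn30013369 the Cy3 difference was 1.25, 0.78 and 1.46 while the Cy5 difference was 0.81, 0.39 and 1.00. In Rn30013764 the Cy5 difference was -1.49 and the Cy3 difference -0.37. Which TXOX animal was on which array is not given, and the part of the reference samples in these ratios was not tested.

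The limits of the rule cut through closely spaced values. Just inside the GH limit lay R004425_01 at 0.590 and Rn30013369 at -0.589, and just outside lay R001758_01 at 0.579 and Rn30002828 at -0.573. At the edge of the band, Rn30003978 and Rn30026934 were inside with E2 plus GH means of 0.298 and -0.299, whereas Rn30008180 and Rn30023139 were outside with -0.302 and -0.327. In all, 9 members had a GH value under 0.66 in size, and 33 further spots met the band with a GH value of 0.50 to 0.58.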

How the data were processed

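Liver RNA was labelled and hybridised to 12 two-colour arrays, scanned, and read by the authors with GenePix Pro 6.0. The deposited scanner output gives each spot's foreground and background intensity, a flag score, and for each channel the percent of saturated pixels and of pixels brighter than the local background by 2 SD. The deposited table gives log2 ratios of treatment to TXOX, which the authors normalized by LOWESS. It was used as given for the rule and the values of the members, and it correlated by 0.89 to 0.987 per array with the ratios computed here, in the same direction.

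From the intensities, background was corrected by normexp (offset 50) and ratios of Cy5 to Cy3 were normalized by a global loess on each array with limma 3.58.1 in R 4.3.3. Left out were spots with a flag and, of 27648 on each array, 554 that hold controls or nothing, and the spots of a repeated probe were averaged, for 26962 probes in all. Testing required at least 3 values in each group compared. With an array left out, the fits and the rule required 1 value fewer in the group that lost it. For GH against TXOX, 21879 probes were thus tested without GH replicate 1, against 20984 with all arrays. The 12 arrays entered 1 linear model with a mean for each treatment, an intensity-dependent prior variance and Benjamini-Hochberg adjustment, which was checked on simulated data. For single channels, the loess-normalized arrays were scaled by the Aquantile method. The number of arrays limits the precision. The p-values measure the spread between arrays, which holds the treated animal, the TXOX animal and the hybridization together. Reuse of TXOX animals across arrays is not stated in the sources used here.

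Replicate numbers are shared by the treatments. GH and E2 plus GH arrays of 1 number deviated together from their group means (correlations of 0.306 to 0.453), so these were taken as pairs from the data alone. Same-numbered E2 arrays correlated with GH arrays by -0.175 to 0.21 and were not taken as pairs, although E2 replicates 3 and 4 correlated by 0.342 and 0.348 with GH replicates 4 and 2, and by 0.246 and 0.296 with E2 plus GH replicates 4 and 2. The fits of GH against E2 and of additivity take no account of this. A probe with at least 50% of pixels above that brightness in both channels counted as above background. Members to name were those above background on at least 3 GH arrays with 4 GH values of 1 sign, up to 12 on each side by size, with the spots at each limit of the rule. Other members were named after their values were seen. The members, lists and tests were chosen with earlier results of these data known. The alternatives that remove the median of each printed block or the last row of blocks were added after seeing the data. No slide or scan grouping of the arrays is given.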

Additional observations from a re-analysis of the deposited data

Results flagged for a closer look

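In 4 of the 58 groups of 4 arrays examined among the members, 1 array lay far from the other 3, and chance flags about 1 in 20 such groups. Probe Rn30019302 read 0.82 on E2 replicate 2 and between -0.10 and -0.01 on the other E2 arrays. Probe Rn30012188 read 0.86 on E2 plus GH replicate 3 and no more than 0.06 in size on the others. Probe Rn30022241 read -0.14 on E2 plus GH replicate 4 against 0.11 to 0.14. Probe Rn30014070 read 0.13 on E2 plus GH replicate 2, against 0.04 to 0.05, so the flag reflects how close the other 3 values were. The first 2 values exceed the limit of 0.58 although the group means stayed in the band.

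In 2 members the test called a departure of the combined treatment from the sum of E2 and GH. The combined effect minus the separate E2 and GH effects was -1.09 (standard error 0.21, limma-adjusted p = 0.0292) for Rn30015093 and -0.94 (standard error 0.209, limma-adjusted p = 0.0488) for Rn30006994. Both lie in the last row of printed blocks, where the median of all spots was 0.37 after E2, 0.28 after GH and 0.10 after E2 plus GH. An offset common to all arrays, from the dye or the slide position, stays in this difference with its sign reversed. Within printed blocks the departures of these 2 members were -0.53 and -0.38, and neither was called. With an array left out, limma called 0.123% to 1.11% of all probes. It called 0 members in 8 of the 12 fits, 1 in 2 and 2 in the other 2. With background subtracted it called 0 members (0.341% of all probes), and without the variance trend 1 (0.465%). The rule chose these spots on the same arrays, so the tests are no independent support.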

How the results depend on the processing

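The rule depended on the values it was applied to. With ratios from the scanner intensities, 27 raised and 17 lowered spots met it, with 12 and 4 of the members among them. The limits were the same, although these ratios spread wider than the authors' table on most arrays. Without background correction 18 and 6 met it, all 21 members included. Within printed blocks 14 and 16 met it. Subtracting each block's median from the table gave 12 and 13, and leaving out the last row of blocks gave 8 and 6. A GH limit of 1 left 2 and 1, a band of 0.2 left 9 and 3, a band of 0.58 gave 70 and 55, and GH arrays of 1 sign left 14 and 3. With group medians 19 and 6 met it, but only 10 raised members and 1 lowered member were among them. Leaving out an array gave 14 to 20 raised and 4 to 33 lowered.

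For GH against TXOX, limma called 361 probes without background correction, 369 within printed blocks, 351 in the authors' table and 432 among probes above local background. It called 425 to 811 with an array left out, the fewest without GH replicate 4. The members called were 9 within printed blocks (1.76% of all probes) and 14 to 17 with an array left out (1.98% to 3.71%). For E2 plus GH against GH it called 3 probes within printed blocks. It called 2 with the replicate number as a random block over the 12 arrays and 0 with it as a fixed block there. When the block was on the 8 arrays, it called 75 probes (0.401%) and 7 members. Leaving out an array gave 0 to 2 probes and 0 members. For GH against E2 it called 130 of 7455 probes above local background (1.74%) and 3 of the 18 members tested, and 152 probes (0.817%) and 1 member with background subtracted. A fixed block on the replicate number gave 295 probes (1.56%) and 7 members and a random one 311 (1.65%) and 8, though these numbers were not taken as pairs. Leaving out an array gave 111 to 249 probes (0.569% to 1.32%), the fewest without E2 replicate 3, and 1 to 6 members. For the departure from additivity it called 60 probes (0.341%) and 0 members with background subtracted, 8 (0.0448%) and 0 within printed blocks, 83 (0.465%) and 1 without the variance trend, 325 (1.82%) and 3 with the random replicate block, 234 (1.31%) and 4 without background correction, and 184 (1.6%) and 4 in the authors' table. Leaving out an array gave 22 to 203 probes (0.123% to 1.11%), the fewest without GH replicate 4, and 0 to 2 members.

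On an array left out of the choice the median GH value was 0.43 to 0.64 for raised spots and -0.40 to 0.03 for lowered spots. It was 0.025, and so reversed, for the lowered spots on GH replicate 1. From scanner intensities the means were 0.43 and -0.27. Of 88 alternatives other than a left-out array, 54 gave a count or value close to that reported (counts within 1.5 times, medians within 1 SD). A close count need not hold the same spots. Group medians gave 6 lowered spots with 1 member among them, and loess within printed blocks gave 14 raised spots with 4. For E2 plus GH against GH, the close counts were 0 beside 0, in 8 of 9 settings for members and 6 of 9 for probes. The 54 are thus no measure of how stable the set is. The cause of the changes in the other alternatives was not tested.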
